A study of Homo sapiens with 9 samples.

Results

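The genes described here encode the matrix metalloproteases (MMPs), the ADAM and ADAMTS metalloproteases and the TIMPs, their tissue inhibitors. They were taken by symbol from the deposited count table as every entry named MMP, ADAM or ADAMTS plus a number, or TIMP1 to TIMP4, which gave 67 of 23710 entries. Of these, 32 had at least 30 counts summed over the 9 libraries, and 29 of the 32 passed the filter on low counts and were tested among 12546 genes. By family, 9 of 22 MMP, 4 of 4 TIMP, 10 of 22 ADAM and 9 of 19 ADAMTS entries reached 30 counts. RNA came from MDA-MB-231, an established human breast cancer cell line of the triple-negative class, after lentiviral transduction with a pGIPZ hairpin vector. The 3 groups of 3 libraries carried the non-targeting hairpin shNT or a hairpin against UGDH, shUGDH-1 or shUGDH-2, so that every group, control included, was transduced. Groups follow the sample titles, with which the listed hairpin sequences fall into the same groups, while the label for the hairpin gives shNT together with the UGDH hairpin in the knockdown samples. UGDH encodes UDP-glucose 6-dehydrogenase, which makes the UDP-glucuronate used in hyaluronan and sulfated glycosaminoglycan chains. The hairpins lower the transcript and do not delete the gene. The labels call the cultures biological replicates without saying whether they were transduced apart, and the p-values rest on the spread among these libraries, which may be technical.

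MMPs are zinc-dependent endopeptidases that cut collagens, laminins and other matrix proteins. Most are secreted, and the membrane-type MMPs are anchored at the cell surface. ADAMs are membrane-bound relatives that release the outer part of surface proteins, among them growth factor precursors, and ADAMTS proteases are secreted enzymes that process procollagens and cut proteoglycan cores such as versican and aggrecan. TIMPs bind the active site of these enzymes and block it. TIMP3 differs from the other inhibitors in that it is held in the matrix through sulfated glycosaminoglycans and also inhibits several ADAM and ADAMTS enzymes.

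The hairpin guides define the groups and are shown with their seed, bases 2 to 8, in capitals.
shUGDH-1: tTGCATCAaatatgcgacg
shUGDH-2: aTATACTTcagatctgctg
Each guide is the exact reverse complement of 19 bases of the UGDH transcript in GENCODE release 29. UGDH itself stood at 50.3 to 55.6 CPM (read counts scaled to a common library size) in the shNT libraries, at 7.30 to 8.03 with shUGDH-1 and at 6.62 to 8.09 with shUGDH-2. Libraries held 9249738 to 13328002 counts. The markers listed for this line were present at 91.7 CPM or more in every library, led by AXL, VIM and CD44, while PGR had no count and ESR1 had 1 count in all. GATA3, listed as low in this line, was nevertheless at 34.1 to 48.1 CPM. Among 9 leukocyte markers, CD3E and MS4A1 had no count and PTPRC had 5, while CSF1R had 354, CD14 had 208 and CD68, a lysosomal membrane protein, stood at 82.8 to 98.9 CPM. The leukocyte list summed to 97.0 to 104 CPM in the controls, 88.1 to 94.3 for shUGDH-1 and 90.4 to 96.7 for shUGDH-2. CD68 was lower than control with both hairpins, at 0.894 and 0.919 of it (adjusted p = 0.0038 and 0.042 by edgeR's quasi-likelihood test). Its libraries overlapped the controls with shUGDH-2. CSF1R had log2 fold changes of -0.55 with shUGDH-1 and -0.29 with shUGDH-2 (adjusted p = 0.047 and 0.35, same test). CD14 went the other way, with log2 values of 0.62 and 0.25 (adjusted p = 0.075 and 0.61, same test). The CD14 libraries of each hairpin did not overlap the controls. Of 8 genes listed as signs of RNA quality, the 4 histone genes were found in the counts and the mitochondrial genes were not. The histone genes summed to 298 to 314 CPM with shNT, 408 to 419 with shUGDH-1 and 331 to 349 with shUGDH-2. Most of this came from the single gene H1F0. The part of the histone genes and of the leukocyte markers in the results below was not tested.

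In control cells the family was dominated by inhibitors and by membrane-anchored enzymes. Levels of different genes are compared as CPM per kilobase of the longest coding transcript in GENCODE. On that scale TIMP2 stood at 228 ± 5.22 (SD, n = 3), TIMP1 at 204 ± 8.91 (SD, n = 3) and MMP14 at 163 ± 5.16 (SD, n = 3). TIMP2 and MMP14, the inhibitor and the membrane-type protease that together bind and activate pro-MMP2, were thus among the 3 highest genes of the family. The ADAMs followed, with ADAM9 at 71.1 ± 1.64 (SD, n = 3) and ADAM15 at 69.9 ± 3.21 (SD, n = 3), which lay within each other's spread. ADAMTS15, a versican- and aggrecan-cleaving enzyme, stood at 39.1 ± 0.156 (SD, n = 3), level with the sheddase gene ADAM8 at 39.0 ± 0.495 (SD, n = 3). The sheddase genes ADAM10 and ADAM17, which release EGF-family ligands, Notch and TNF, stood at 24.2 ± 0.735 (SD, n = 3) and 8.996 ± 0.717 (SD, n = 3). TIMP3 was the 12th of the 32, at 6.71 ± 0.313 (SD, n = 3), and TIMP4 the 18th, at 1.98 ± 0.262 (SD, n = 3). ADAM10 has a long transcript of 11431 bases, and its place in the order depends on the transcript length used.

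**Figure D1:**
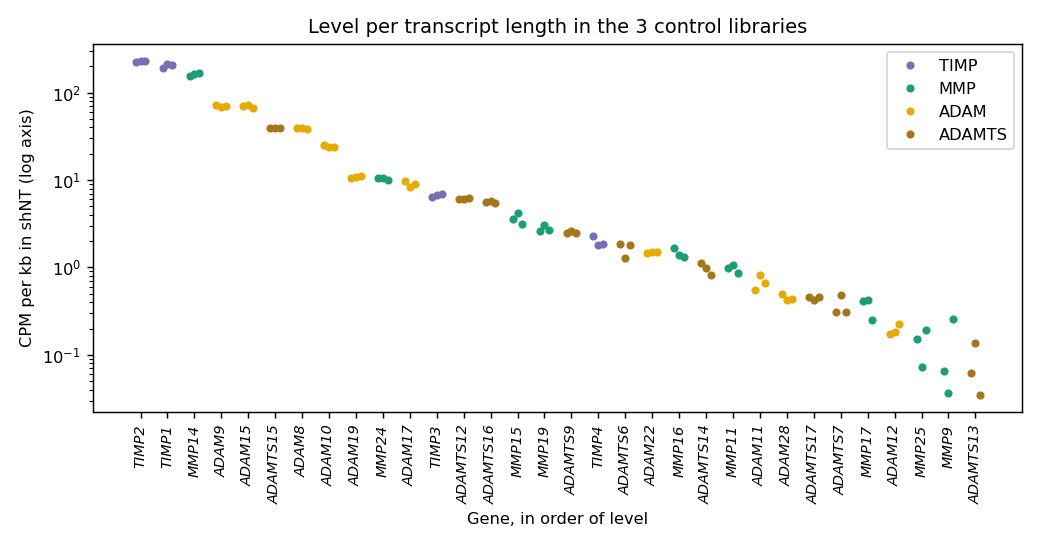
Level of each of the 32 genes with at least 30 counts in the 3 shNT libraries, as CPM per kilobase on a log axis, 1 point per library and 1 colour per family. TIMP2, TIMP1 and MMP14 lead, and the genes at the right end, MMP25, MMP9 and ADAMTS13, spread widely between libraries.

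The secreted collagenases and gelatinases and the stromelysin genes MMP3 and MMP10 were at or near the floor of detection. MMP9, a gelatinase gene, had 2, 1 and 7 counts in the control libraries, 3, 2 and 5 in those of shUGDH-1 and 2, 3 and 8 in those of shUGDH-2, 33 in all. It lay just inside the limit of 30 counts, with ADAMTS13, the protease of von Willebrand factor, at 38 counts. MMP1, the interstitial collagenase, lay just outside at 28 counts, with 1, 2 and 2 in the controls, 5, 2 and 7 for the first hairpin and 4, 4 and 1 for the second. The gelatinase gene MMP2 had 15, with 5, 2 and 0 in the controls, 2, 0 and 0 for the first hairpin and 4, 1 and 1 for the second. The 10 MMP genes on chromosome 11, among them the collagenase genes MMP1, MMP8 and MMP13, the stromelysin genes MMP3 and MMP10 and the matrilysin gene MMP7, had 0 to 28 counts each. Among the 67 genes, 10 MMP, 5 ADAM and 6 ADAMTS genes had 1 to 29 counts and 3 MMP, 7 ADAM and 4 ADAMTS genes had none. These genes were not tested, and counts this low leave little to compare between groups. MMP25, MMP9 and ADAMTS13 reached 30 counts and failed the filter on low counts, so they were not tested. In ADAMTS13, 15 of the 38 counts came from replicate 1 of shUGDH-2.

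Among the 29 tested genes, 8 rose and 2 fell with shUGDH-1 against shNT, by edgeR's quasi-likelihood test at an adjusted p under 0.05. Over all genes tested, 10.5% rose and 10.3% fell in that comparison, 20.8% in either direction. With shUGDH-2, 7 rose and 3 fell, against 8.04% and 6.81% of all genes, 14.9% in either direction. The share that rose was 27.6% with shUGDH-1 and 24.1% with shUGDH-2. The median log2 fold change of the 29 genes was 0.06 with shUGDH-1 and 0.05 with shUGDH-2, beside -0.0026 and -0.0059 over all genes tested, and the median absolute change was 0.08 and 0.10, beside 0.10 and 0.09. The changes were thus small for most members. Groups did not overlap in 12 of 29 genes with each hairpin, where 34.1% and 28.5% of all genes did not overlap. Both comparisons use the same 3 control libraries. Between shUGDH-2 and shUGDH-1, 2 members were higher and 3 lower, against 5.36% and 5.51% of all genes, 10.9% in either direction. Without replicate 1 of shNT, 5 members in place of 8 rose with shUGDH-1 and 1 in place of 2 fell, and without replicate 3 of shUGDH-2, 4 in place of 7 rose with that hairpin. DESeq2 also called 4 higher with shUGDH-2, and 2 of the 7, ADAMTS14 and MMP19, got no adjusted p from it there. Between the hairpins, 1 member in place of 2 was higher without replicate 1 of shUGDH-1 or replicate 2 of shUGDH-2. The authors' deposited tables, read at the same threshold, call 7 members higher and 2 lower with shUGDH-1, and 5 higher and 3 lower with shUGDH-2. The share of all genes called is given here for the main fit only. Fewer members under an alternative or in the authors' tables may therefore reflect fewer calls in general. Replicate 1 of shNT stood furthest from its group, at 1.91 and 1.87 times the variance of counting alone against the other controls, where other pairs within a group gave 1.19 to 1.47.

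**Figure D2:**
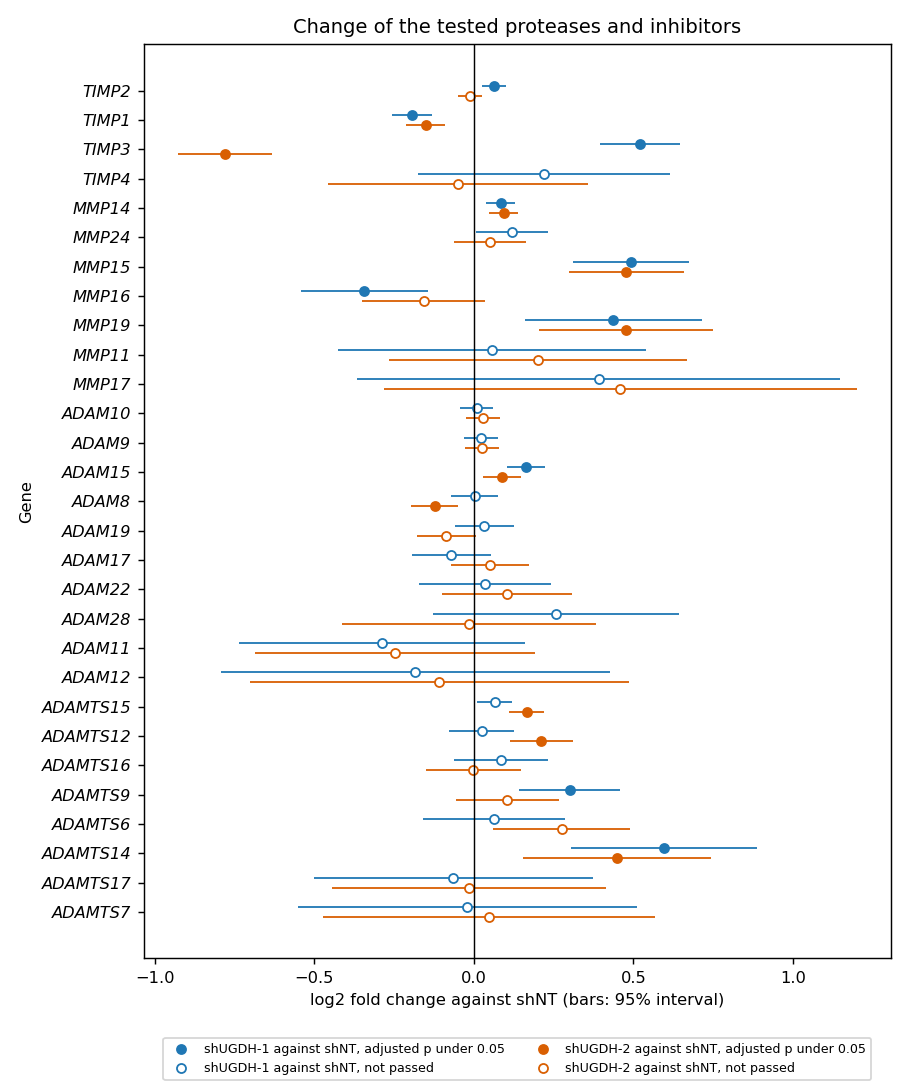
Log2 fold change against shNT of the 29 tested genes with each hairpin, with the 95% interval of the fit, filled where the adjusted p was under 0.05. TIMP3 stands to the right of 0 with shUGDH-1 (0.52) and to the left with shUGDH-2 (-0.78), while MMP15, MMP19 and ADAMTS14 lie to the right with both.

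The inhibitors gave the largest contrast of the family. TIMP3 rose with shUGDH-1 and fell with shUGDH-2. It stood at 29.3, 31.1 and 32.2 CPM in the shNT libraries, at 44.2, 43.6 and 45.4 with shUGDH-1 and at 17.6, 17.0 and 19.3 with shUGDH-2. The 3 groups did not overlap, with the control between the hairpins. The fold change was 1.44 with shUGDH-1 (log2 0.52, SE 0.06, adjusted p = 1.3e-09 by edgeR's quasi-likelihood test), and with shUGDH-2 TIMP3 fell to 0.583 of control (log2 -0.78, SE 0.07, adjusted p = 1.0e-12, same test). Compared directly, TIMP3 with shUGDH-2 was at 0.406 of its level with shUGDH-1 (log2 -1.30 with an SE of 0.07, adjusted p = 3.8e-23 by that test). These 3 calls kept their direction and passed under all 16 alternatives run for them. The authors' deposited tables give TIMP3 a log2 fold change of 0.51 with shUGDH-1 and -0.75 with shUGDH-2. As the reads come from bulk RNA, fewer cells that express a gene and less RNA per cell cannot be told apart.

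TIMP3 lies within SYN3, on the opposite strand and sharing no exon with it. SYN3 had 1 count in all libraries. In the 3′ untranslated region of the longest coding TIMP3 transcript (3666 bases, GENCODE release 29, GRCh38), 1 match to the seed of shUGDH-1 was found and none to that of shUGDH-2, taking each guide to start at its first listed base. The stretch is shown with the bases that pair with the seed in capitals.
TIMP3 stretch: gagagtcggagaTGATGCAgca
Among 1422 tested genes with a 3′ untranslated region of about that length, 21.3% held the same 7 letters for shUGDH-1 (TGATGCA) and 28.2% those for shUGDH-2 (AAGTATA). Seed matches were read on the transcript strand only. Over 11141 tested genes with a 3′ untranslated region of at least 50 bases, 11.2% held the letters for shUGDH-1 and 15.1% those for shUGDH-2. Longer regions hold more matches, and the lengths of the members differ. Among the tested members, TIMP3, MMP16, ADAMTS15, ADAM22, ADAM28, ADAM11 and ADAMTS17 held a match for shUGDH-1. With that hairpin TIMP3 rose, MMP16 fell and the others did not pass. MMP16, ADAM10, ADAM22 and ADAMTS16 held a match for shUGDH-2, and the lowest adjusted p among them with that hairpin was 0.31, for MMP16 (same test). Whether the seeds play a part in these values was not tested.

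COL1A2, a type I collagen gene from the list of fibroblast markers, also stood on opposite sides of the control. COL1A2 was at 6.45, 6.04 and 6.05 CPM with shNT, at 10.3, 11.5 and 13.5 with shUGDH-1 and at 4.80, 3.08 and 3.64 with shUGDH-2. It rose 1.88-fold with shUGDH-1 (adjusted p = 2.4e-07 by edgeR's quasi-likelihood test) and fell to 0.617 of control with shUGDH-2 (adjusted p = 0.0019, same test). The list of 8 fibroblast markers summed to 34.1 to 37.9 CPM with shNT, 41.3 to 44.2 with shUGDH-1 and 38.4 to 40.6 with shUGDH-2. The largest part of these sums was PDGFRB, with group means of 20.1, 20.7 and 22.2 CPM. PDGFRB did not pass with either hairpin (adjusted p = 0.78 and 0.25 by edgeR's quasi-likelihood test). The defining members of the list, DCN and LUM, had no count in any library. COL1A1, of the same list, had a log2 fold change of 0.11 with shUGDH-1 (adjusted p = 0.58) and rose by 0.42 with shUGDH-2 (adjusted p = 0.0035, edgeR's quasi-likelihood test). The part of these genes in the TIMP3 result was not tested.

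TIMP1, a secreted inhibitor of most MMPs, was lower with both hairpins. It stood at 212.1, 231.1 and 225.6 CPM with shNT, at 193, 189 and 204 with shUGDH-1 and at 204, 202 and 196 with shUGDH-2. Every knockdown library was below every control library. TIMP1 fell by 0.19 on the log2 scale with shUGDH-1 (SE 0.03, adjusted p = 2.8e-06 by edgeR's quasi-likelihood test) and by 0.15 with shUGDH-2 (SE 0.03, adjusted p = 0.00030, same test). Between the hairpins the log2 difference was 0.04, with a 95% interval of -0.02 to 0.11 (adjusted p = 0.48, same test).

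TIMP2, which inhibits MMPs and also serves as the bridge between MMP14 and pro-MMP2, moved little. It stood at 811, 841 and 847 CPM with shNT, at 865, 869 and 877 with shUGDH-1 and at 820, 824 and 836 with shUGDH-2. The shUGDH-1 libraries lay above all others, and shUGDH-2 overlapped the control. TIMP2 rose 1.04-fold with shUGDH-1 (log2 0.06, SE 0.02, adjusted p = 0.012 by edgeR's quasi-likelihood test), a call that was lost without replicate 1 of shNT (adjusted p = 0.14) or replicate 3 of shUGDH-1 (adjusted p = 0.066). Its log2 fold change was -0.01 with shUGDH-2 (adjusted p = 0.77), and it was lower with shUGDH-2 than with shUGDH-1 by -0.07 on the log2 scale (adjusted p = 0.0047, same test). TIMP4, a low-level inhibitor best known from heart and brain, ranged from 2.98 to 3.76 CPM with shNT, 3.26 to 4.62 with shUGDH-1 and 2.70 to 3.96 with shUGDH-2. It passed in no comparison (adjusted p = 0.49, 0.91 and 0.46 against shNT and between the hairpins). The summed level of the 4 inhibitors was 1057 to 1108 CPM with shNT, 1105 to 1130 with shUGDH-1 and 1044 to 1056 with shUGDH-2.

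**Figure D3:**
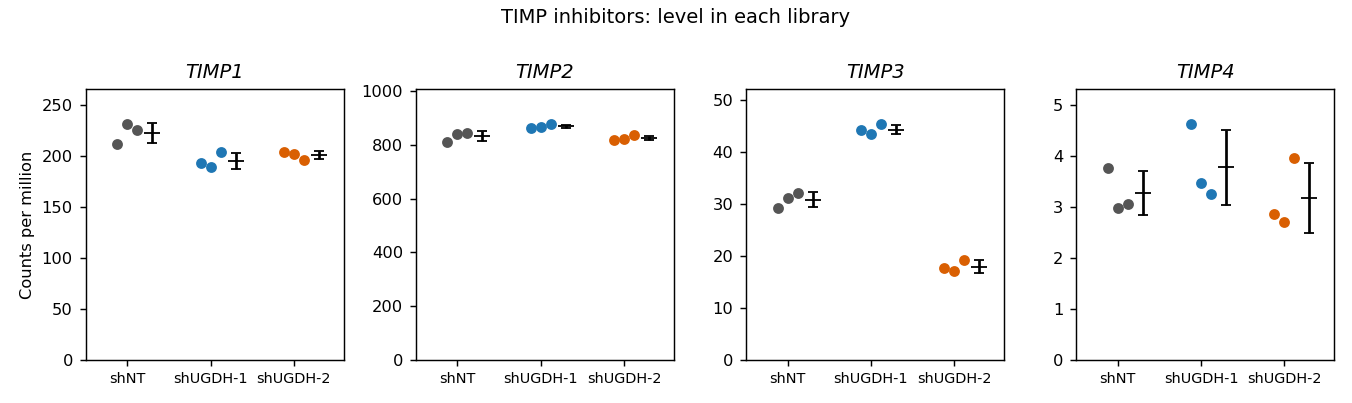
CPM of the 4 TIMP genes, 1 panel each with its own axis from 0, 1 point per library and the mean with SD at the right of each group (n = 3). TIMP3 is highest with shUGDH-1 (43.6 to 45.4) and lowest with shUGDH-2 (17.0 to 19.3), and TIMP1 is below the control with both hairpins.

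The RefSeq start regions of TIMP1 and TIMP3 are shown because the changes of these inhibitors passed under every alternative run, with that of MMP15, a membrane-type protease gene whose rise with both hairpins did so as well. Each runs from 250 bases before to 50 bases after the annotated start (GRCh38.p14, + strand), and GC boxes (GGGCGG on either strand) are in capitals.
TIMP1, chrX:47582186-47582485: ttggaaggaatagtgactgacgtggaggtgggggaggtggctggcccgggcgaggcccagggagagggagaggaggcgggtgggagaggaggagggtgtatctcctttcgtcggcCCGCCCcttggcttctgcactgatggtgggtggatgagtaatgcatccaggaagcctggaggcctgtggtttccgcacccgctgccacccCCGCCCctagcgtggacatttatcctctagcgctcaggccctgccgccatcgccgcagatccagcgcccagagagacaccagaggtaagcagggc
TIMP3, chr22:32801455-32801754: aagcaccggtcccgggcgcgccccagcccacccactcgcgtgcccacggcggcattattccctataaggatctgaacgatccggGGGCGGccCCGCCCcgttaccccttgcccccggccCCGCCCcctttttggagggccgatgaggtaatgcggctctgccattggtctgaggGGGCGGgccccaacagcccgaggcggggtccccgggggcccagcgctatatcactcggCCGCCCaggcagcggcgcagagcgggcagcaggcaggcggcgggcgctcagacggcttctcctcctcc
MMP15, chr16:58025504-58025803: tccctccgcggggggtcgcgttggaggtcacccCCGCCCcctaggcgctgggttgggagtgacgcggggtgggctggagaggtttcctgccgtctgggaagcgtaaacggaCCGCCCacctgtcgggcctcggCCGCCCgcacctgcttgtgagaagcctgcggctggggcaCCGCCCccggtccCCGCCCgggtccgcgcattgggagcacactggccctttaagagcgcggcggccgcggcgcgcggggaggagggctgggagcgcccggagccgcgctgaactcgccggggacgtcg
These windows hold 2 GC boxes in TIMP1, 5 in TIMP3 and 5 in MMP15, at 65.0%, 72.7% and 75.3% G and C. None of them holds an exact match to the AP-1 letters TGANTCA, which read the same on both strands. Stretches that vary from these letters, such as tgagtaa in the TIMP1 window, were not searched for. Start regions were matched for 20 of the 32 genes. Of these, 18 held a GC box, beside 44.6% of all 27305 RefSeq start regions and 71.1% of those of tested genes, and 1, ADAMTS12, held the AP-1 letters, beside 7.76% and 4.62%. These matches are descriptions of the windows and not evidence of binding.

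The membrane-type MMPs cut matrix directly at the cell surface. Of 5 tested, shUGDH-1 gave 2 rises and 1 fall, and shUGDH-2 gave 2 rises, where the other 3 did not pass. Of all genes, 20.8% and 14.9% passed in either direction. MMP15, the second membrane-type enzyme, rose most. It stood at 15.2, 17.9 and 13.3 CPM with shNT, at 21.0, 22.4 and 21.8 with shUGDH-1 and at 21.7, 23.0 and 19.7 with shUGDH-2. All 6 knockdown libraries were above all controls. The increase was 1.41-fold with shUGDH-1 (log2 0.49, SE 0.09, adjusted p = 2.5e-05 by edgeR's quasi-likelihood test) and 1.39-fold with shUGDH-2 (log2 0.48, SE 0.09, adjusted p = 7.5e-05, same test), and each passed under all 16 alternatives. The hairpins differed by a log2 value of -0.02, with a 95% interval of -0.19 to 0.15.

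MMP14, a collagenase of the cell surface and the activator of pro-MMP2, was the protease gene with the highest level per length and rose slightly. It stood at 585, 617 and 620 CPM with shNT, at 623, 648 and 661 with shUGDH-1 and at 645, 636 and 663 with shUGDH-2. The lowest knockdown library lay just above the highest control. The increase was 1.06-fold with shUGDH-1 (log2 0.08, SE 0.02, adjusted p = 0.0040 by edgeR's quasi-likelihood test) and 1.07-fold with shUGDH-2 (log2 0.09, SE 0.02, adjusted p = 0.0020, same test). With shUGDH-1 the call was lost without replicate 1 of shNT (adjusted p = 0.068) or replicate 3 of shUGDH-1 (adjusted p = 0.065). MMP14 did not pass with shUGDH-1 in the authors' deposited table (their adjusted p = 0.080).

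MMP16, a further membrane-type enzyme, stood at 19.2, 15.9 and 15.1 CPM with shNT, at 12.86, 13.77 and 13.02 with shUGDH-1 and at 13.6, 16.1 and 15.4 with shUGDH-2. It was below every control with shUGDH-1 and overlapped the controls with shUGDH-2. MMP16 fell by 0.34 on the log2 scale with shUGDH-1 (SE 0.10, adjusted p = 0.0084 by edgeR's quasi-likelihood test). Without replicate 1 of shNT, which held the highest value, the change was -0.23 (adjusted p = 0.16), and with DESeq2 the adjusted p was 0.074. Its log2 fold change for shUGDH-2 was -0.16 (adjusted p = 0.31), and the difference between the hairpins did not pass (log2 0.19, 95% interval -0.02 to 0.39). MMP24, a membrane-type MMP best known from neurons, ranged from 44.1 to 47.2 CPM with shNT, 47.5 to 53.4 with shUGDH-1 and 45.4 to 49.0 with shUGDH-2. Its adjusted p was 0.13 and 0.62. MMP17, a GPI-anchored enzyme, had group means of 0.872 to 1.20 CPM and passed in no comparison.

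Of the secreted MMPs, MMP19 and MMP11 were tested. MMP19, which cuts basement membrane proteins, stood at 5.76, 6.89 and 5.96 CPM with shNT, at 7.70, 9.40 and 7.92 with shUGDH-1 and at 7.92, 8.09 and 9.86 with shUGDH-2. All knockdown libraries exceeded all controls. MMP19 rose 1.35-fold with shUGDH-1 (log2 0.44, SE 0.14, adjusted p = 0.017 by edgeR's quasi-likelihood test) and 1.39-fold with shUGDH-2 (log2 0.48, SE 0.14, adjusted p = 0.010, same test). At this depth the calls depended on single libraries. With shUGDH-1 it did not pass without replicate 1 or 3 of shNT or replicate 2 of shUGDH-1 (adjusted p = 0.073, 0.055 and 0.16) or with DESeq2 (0.11), and with shUGDH-2 not without replicate 1 of shNT or replicate 3 of shUGDH-2 (0.054 and 0.10). The transcribed pseudogene TMEM198B overlaps MMP19 exons on the opposite strand, and use of strand in the counting is not given in the sources used here. TMEM198B had log2 fold changes of -0.01 and 0.23 (adjusted p = 0.97 and 0.39). Exon overlap was also found for other members with calls. TIMP2 overlaps CEP295NL and ADAM15 overlaps DCST1 on the same strand. MMP16 overlaps AC090578.1 and ADAMTS9 overlaps ADAMTS9-AS1 on the opposite strand. DCST1 had 11 counts in all, and the other overlapping genes of these members were not found by name among the deposited counts. MMP11, stromelysin-3, was at 1.96 to 3.31 CPM over all libraries and passed in no comparison. It shares exonic sequence with CHCHD10 on the opposite strand, which rose 1.23-fold with shUGDH-2 (adjusted p = 0.017). The summed level of all MMPs, most of it from MMP14, was 677 to 708 CPM with shNT, 723 to 757 with shUGDH-1 and 737 to 762 with shUGDH-2.

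Among the ADAMs, the main sheddases showed no detected change. ADAM10 stood at 286, 270 and 275 CPM with shNT, at 275, 282 and 280 with shUGDH-1 and at 284, 281 and 282 with shUGDH-2. The groups overlapped. Its log2 fold change was 0.01 with shUGDH-1 (95% interval -0.04 to 0.06, adjusted p = 0.86) and 0.03 with shUGDH-2 (95% interval -0.02 to 0.08, adjusted p = 0.54). ADAM17, the TNF-converting enzyme, stood at 43.0, 36.7 and 39.4 CPM with shNT, at 37.9, 38.9 and 36.6 with shUGDH-1 and at 43.4, 40.9 and 39.4 with shUGDH-2. Its log2 fold change was -0.07 and 0.05 (adjusted p = 0.48 and 0.66). The exons of ADAM17 overlap those of IAH1 on the opposite strand, for which the log2 values were -0.05 and -0.02 (adjusted p = 0.71 and 0.92). ADAM9, a widely expressed sheddase, had log2 fold changes of 0.02 and 0.03 (adjusted p = 0.61 and 0.58).

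ADAM15, which carries an integrin-binding motif and cuts cadherin and growth factor substrates, was the ADAM gene that rose. It stood at 208, 214 and 196 CPM with shNT, at 229, 229 and 235 with shUGDH-1 and at 222, 217 and 219 with shUGDH-2. All knockdown libraries were above all controls. The increase was 1.12-fold with shUGDH-1 (log2 0.16, SE 0.03, adjusted p = 2.2e-05 by edgeR's quasi-likelihood test) and 1.06-fold with shUGDH-2 (log2 0.09, SE 0.03, adjusted p = 0.030, same test). With shUGDH-2 the call was lost without replicate 3 of shNT (adjusted p = 0.27), without replicate 1 or 3 of shUGDH-2 (0.11 and 0.057) and with DESeq2 (0.086). ADAM15 did not pass with shUGDH-2 in the authors' deposited table either (their adjusted p = 0.12).

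ADAM8, a sheddase of adhesion molecules on leukocytes and tumour cells, was lower with shUGDH-2. It stood at 128, 129 and 126 CPM with shNT, at 121, 130 and 134 with shUGDH-1 and at 118, 114 and 120 with shUGDH-2. The shUGDH-2 libraries lay below every other library. ADAM8 fell by 0.12 on the log2 scale with shUGDH-2 (SE 0.04, adjusted p = 0.016 by edgeR's quasi-likelihood test). Its log2 fold change with shUGDH-1 was 0.0024 (adjusted p = 0.98), and it was lower with shUGDH-2 than with shUGDH-1 by -0.13 on the log2 scale (adjusted p = 0.018, same test). The first call was lost without replicate 2 of shNT or of shUGDH-2 (adjusted p = 0.056 and 0.11) and with DESeq2 (0.069). The second was lost without replicate 2 or 3 of shUGDH-1 or replicate 2 of shUGDH-2 (0.11, 0.15 and 0.13) and with DESeq2 (0.10). ADAM19, ADAM28 and ADAM12, which are proteolytic, and ADAM22 and ADAM11, which lack the zinc-binding motif and act in adhesion and at synapses, passed in no comparison. Their log2 fold changes against shNT lay between -0.29 (ADAM11 with shUGDH-1) and 0.26 (ADAM28 with shUGDH-1).

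The ADAMTS proteases held the gene with the largest rise of the family with shUGDH-1. ADAMTS14, which removes the N-terminal propeptide of fibrillar procollagens, stood at 5.99, 5.19 and 4.26 CPM with shNT, at 7.70, 7.30 and 8.68 with shUGDH-1 and at 7.50, 6.85 and 6.87 with shUGDH-2. All knockdown libraries were above all controls. ADAMTS14 rose 1.51-fold with shUGDH-1 (log2 0.60, SE 0.15, adjusted p = 0.0015 by edgeR's quasi-likelihood test), a call kept under all 16 alternatives. It rose 1.37-fold with shUGDH-2 (log2 0.45, SE 0.15, adjusted p = 0.028, same test), and this call was lost when replicate 2 or 3 of shNT or any 1 replicate of shUGDH-2 was left out (adjusted p = 0.050 to 0.17). ADAMTS14 did not pass with shUGDH-2 in the authors' deposited table (their adjusted p = 0.074). The other procollagen proteinase genes, ADAMTS2 and ADAMTS3, had 1 and 3 counts in all.

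Of the proteoglycan-cleaving members, ADAMTS15 and ADAMTS9 were expressed, and each passed against the control with 1 hairpin. ADAMTS15 stood at 221, 221 and 223 CPM with shNT, at 229, 237 and 229 with shUGDH-1 and at 250, 251 and 245 with shUGDH-2. The 3 groups did not overlap. It rose 1.12-fold with shUGDH-2 (log2 0.17, SE 0.03, adjusted p = 6.6e-06 by edgeR's quasi-likelihood test). With shUGDH-1 the log2 fold change was 0.07 (adjusted p = 0.087), and shUGDH-2 was above shUGDH-1 by 0.10 (SE 0.03, adjusted p = 0.0084, same test), a difference that did not pass without replicate 1 of shUGDH-1 (0.063). ADAMTS9 stood at 18.7, 20.1 and 19.0 CPM with shNT, at 23.4, 23.5 and 24.3 with shUGDH-1 and at 19.3, 21.3 and 21.5 with shUGDH-2. It rose 1.23-fold with shUGDH-1 (log2 0.30, SE 0.08, adjusted p = 0.0034, same test). With shUGDH-2 its log2 fold change was 0.10 (adjusted p = 0.44), and the difference between the hairpins did not pass (log2 -0.20, adjusted p = 0.099). The proteoglycanase genes ADAMTS4 and ADAMTS5 had 0 and 1 counts, and ADAMTS1 had 7.

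ADAMTS12, which cuts cartilage oligomeric matrix protein, stood at 53.6, 53.0 and 55.4 CPM with shNT, at 55.8, 54.5 and 54.3 with shUGDH-1 and at 61.9, 64.8 and 60.8 with shUGDH-2. The shUGDH-2 libraries were above all others. ADAMTS12 rose 1.16-fold with shUGDH-2 (log2 0.21, SE 0.05, adjusted p = 0.0015 by edgeR's quasi-likelihood test), against a log2 fold change of 0.02 with shUGDH-1 (adjusted p = 0.80). It was higher with shUGDH-2 than with shUGDH-1 by 0.19 (SE 0.05, adjusted p = 0.0063, same test), which did not pass with DESeq2 (0.054) or without replicate 2 of shUGDH-2 (0.063). ADAMTS6, ADAMTS7, ADAMTS16 and ADAMTS17 passed in no comparison, although the 3 shUGDH-2 libraries of ADAMTS6, at 13.7, 14.2 and 16.0 CPM, were above its controls at 13.5, 9.44 and 13.2 (adjusted p = 0.074). The summed level of the ADAMTS genes was 343 to 347 CPM with shNT, 358 to 372 with shUGDH-1 and 382 to 392 with shUGDH-2. These ranges did not overlap, and most of each sum came from ADAMTS15, with group means of 222, 232 and 249 CPM.

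**Figure D4:**
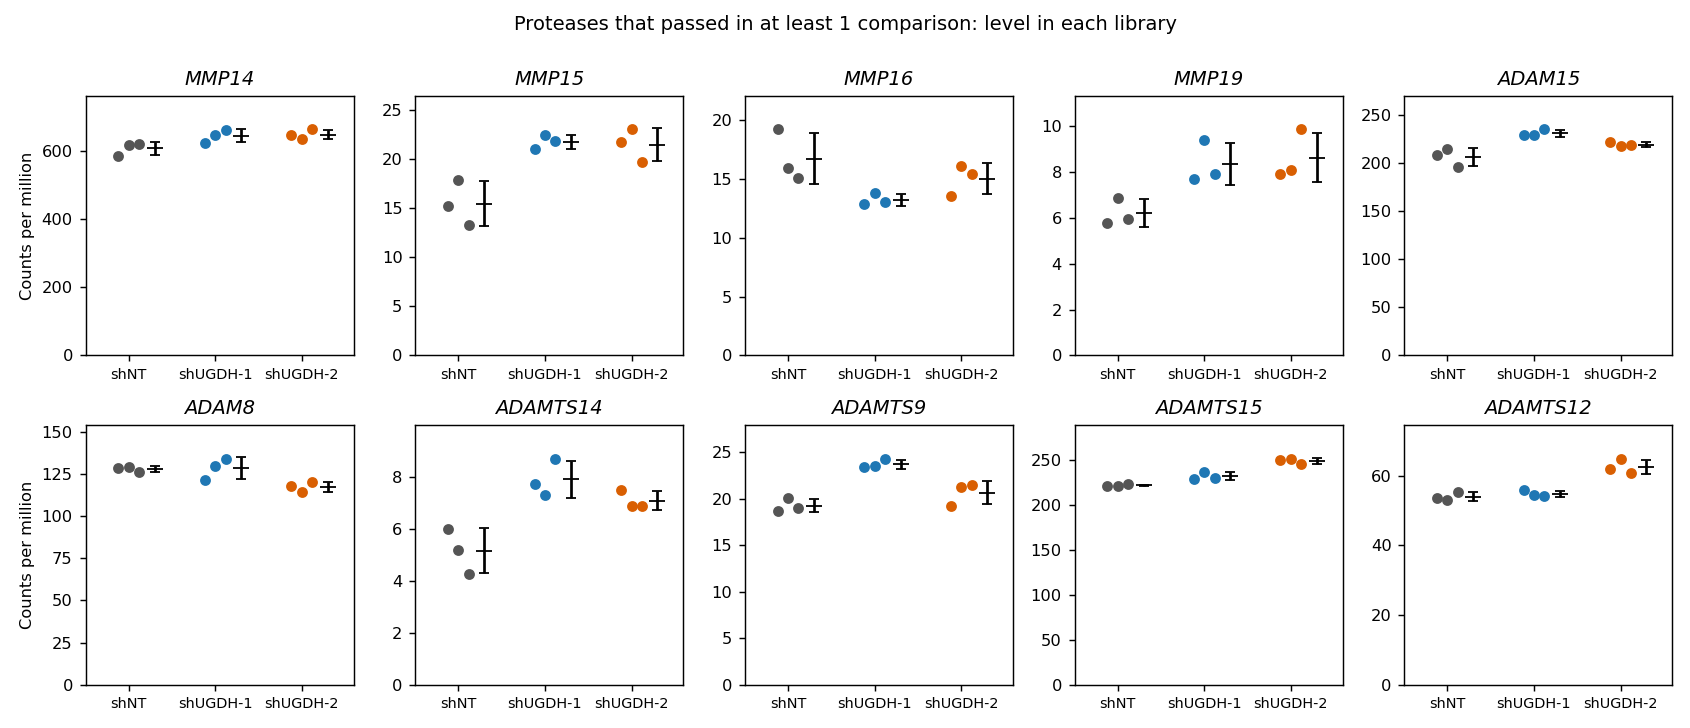
CPM of the 10 protease genes that passed in at least 1 comparison, 1 panel each with its own axis from 0, 1 point per library and the mean with SD at the right of each group (n = 3). MMP15 and ADAMTS14 are above the control with both hairpins, and ADAMTS15 and ADAMTS12 are highest with shUGDH-2.

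Genes that activate, carry or restrain these proteases were also read from the same test, and every rise or fall named from these lists passed it. Of 15 tested activators, partners and other inhibitors, shUGDH-1 gave 5 rises (10.5% of all genes rose) and shUGDH-2 gave 4 (8.04% of all genes), the others did not pass, and the median log2 fold changes were 0.10 and 0.12. TFPI2, a secreted serine protease inhibitor, had group means of 204, 213 and 263 CPM in shNT, shUGDH-1 and shUGDH-2 and rose 1.29-fold with shUGDH-2 (adjusted p = 5.8e-16 by edgeR's quasi-likelihood test). TSPAN14, a tetraspanin that escorts ADAM10 to the surface, rose 1.11-fold with shUGDH-1 and 1.10-fold with shUGDH-2. LRP1, the endocytic receptor that clears MMPs and TIMPs, rose 1.21-fold and 1.20-fold. RHBDF2, the rhomboid protein iRhom2 needed for ADAM17 maturation, rose 1.16-fold with shUGDH-1, and BSG, an inducer of MMPs also called EMMPRIN, rose 1.07-fold with that hairpin. FURIN and RECK are named for their roles after their values were seen. FURIN, the convertase that removes the propeptide of membrane-type MMPs and ADAMs, rose 1.08-fold with each hairpin, while RECK, a membrane-anchored MMP inhibitor, had log2 fold changes of 0.18 and 0.19 (adjusted p = 0.25 and 0.24). The 5 tested ADAMTS-like genes, which share the ancillary domains but lack the protease, had adjusted p-values of 0.13 or more, with median log2 values of 0.07 and 0.02.

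Plasmin activates several pro-MMPs, and of 11 tested genes of plasminogen activation and membrane serine proteases 6 rose and 2 fell under the first hairpin, where 10.5% and 10.3% of all genes did. Under the second hairpin 4 rose and 2 fell, where 8.04% and 6.81% of all genes did. The list had median log2 values of 0.18 and 0.02. PLAT, tissue plasminogen activator, rose 1.37-fold and 1.22-fold, while PLAU, urokinase, fell by 0.18 and 0.07 on the log2 scale. SPINT1, an inhibitor of membrane serine proteases, rose 2.47-fold and 2.08-fold from a control mean of 2.13 CPM. SPINT2, a related inhibitor, rose 1.28-fold and ANXA2, a surface receptor for plasminogen, 1.13-fold with shUGDH-1. Among 19 astacin, cathepsin and cystatin genes, shUGDH-1 gave 2 rises and 5 falls, beside 10.5% and 10.3% of all genes, so that its share of rises was that of all genes. For shUGDH-2 there were 3 rises and 2 falls, beside 8.04% and 6.81%, with median log2 values of 0.05 and 0.11. The lysosomal protease genes CTSL1, CTSD and CTSF fell by 0.26, 0.10 and 0.28 on the log2 scale with shUGDH-1, and CTSD fell by 0.05 with shUGDH-2. CTSB rose 1.06-fold and 1.08-fold, and CTSZ rose 1.09-fold with shUGDH-2.

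AP-1, ETS and RUNX factors are classical regulators of MMP and TIMP promoters. Of 15 tested, shUGDH-1 gave 5 rises and 2 falls, beside 10.5% and 10.3% of all genes, and shUGDH-2 gave 4 of each, beside 8.04% and 6.81%, with median log2 values of 0.07 and 0.02. FOS rose 1.23-fold with shUGDH-1 and fell by 0.28 on the log2 scale with shUGDH-2. JUND rose 1.46-fold and 1.48-fold, FOSB rose by 0.32 on the log2 scale with shUGDH-1, and JUN and ELK3 fell by 0.23 and 0.25 with shUGDH-2. Of 27 tested substrates of ADAM10 or ADAM17, 8 were up and 5 down with shUGDH-1, beside 10.5% and 10.3% of all genes, and 7 up and 2 down with shUGDH-2, beside 8.04% and 6.81%, with median log2 values of 0.0030 and 0.05. L1CAM, an adhesion molecule, rose 1.45-fold and 1.19-fold and F11R, a junctional adhesion molecule, 1.48-fold and 1.36-fold. EREG, the growth factor epiregulin, fell by 0.59 on the log2 scale with shUGDH-1 and rose 1.14-fold with shUGDH-2. The syndecan gene SDC4 rose 1.09-fold and 1.24-fold, and SDC1 rose 1.14-fold with shUGDH-1.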

How the data were processed

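Read counts per gene, as deposited by the authors, were used for all 9 libraries. STAR, DESeq and DESeq2 and the build hg19 are named in the submitters' processing notes. No version, annotation, counting tool or strand setting could be read from the labels or headers. Comparison tables deposited by the authors hold, per the file headers, a mean signal (baseMean), log2 fold changes with standard errors and p-values; only values named as theirs come from them. Members and gene lists were chosen with earlier results of these data known.

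Counts were filtered with filterByExpr, normalized by TMM (factors 0.997 to 1.003) and fitted over the 3 groups with edgeR 4.0.16 (robust quasi-likelihood, 6 residual degrees of freedom). p-values were Benjamini-Hochberg adjusted over 12546 genes, and the threshold was 0.05. The filter kept 99.9% of counts. In the table, 28 symbols had been converted to dates (0.232% of counts) and stayed in the fit unnamed. Depth was 9249738 to 13328002 counts per library. The fit was tested on simulated data. Intervals use the fit's SE.

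Values for each library were printed for members that passed and had a group mean of at least 1 CPM, for TIMP1 to TIMP4, MMP1, MMP2, MMP9, MMP14, ADAM10 and ADAM17 (TIMP4 by range), and up to 5 passing genes were named from each related list, by adjusted p. Transcript lengths, 3′ regions and gene overlaps came from GENCODE release 29 (GRCh38) by symbol, and start regions from RefSeq. Alternatives were DESeq2 1.42.0, its size factors, other count filters, no robust estimate, only the groups compared, a replicate block and each library left out.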

Additional observations from a re-analysis of the deposited data

How the results depend on the processing

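Of 25 member changes that passed, 14 passed with the same direction in every alternative run, 11 missed the threshold in at least 1, and none reversed. Of the member values that did not pass, only 12 were followed through the alternatives, and none of them passed. They belong to TIMP1, TIMP2, TIMP4, MMP14, ADAM10 and ADAM17. The other values that did not pass, some of them near the threshold, were not followed. Replicate numbers are shared between groups, but same-numbered libraries did not deviate together (correlations of -0.041 to 0.069), and with the replicate block the counts were as before, 8 higher and 2 lower for the first hairpin, 7 and 3 for the second, and 2 and 3 between them. Other size factors, other count filters, no robust estimate and only the 2 groups compared also gave these counts. DESeq2 gave no adjusted p for ADAMTS14, MMP19 and TIMP4 with shUGDH-2. It called 7 members higher and 1 lower with shUGDH-1, and 4 higher and 2 lower with shUGDH-2. In the second hairpin against the first it called 1 higher and 2 lower. With each library left out in turn, shUGDH-1 gave 5 to 8 members higher and 1 to 2 lower, shUGDH-2 gave 4 to 7 higher and 2 to 3 lower, and 1 to 2 higher and 2 to 3 lower between the hairpins. The share of all genes called under each alternative is not given, and the cause was not tested. All members together held 3147, 3269 and 3209 CPM in shNT, shUGDH-1 and shUGDH-2, and 2314, 2399 and 2382 CPM without TIMP2, the member with the most counts. With 1 library left out, these totals ranged from 3138 to 3164, 3254 to 3283 and 3202 to 3213 CPM. Depth limits the low genes: the 95% interval of the log2 fold change with shUGDH-1 was 1.52 wide for MMP17, the lowest tested member, and 0.08 for TIMP2.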
